A study of Mus musculus with 2 samples.

Results

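A small set of cultured mouse lung fibroblasts carried transcripts of Hsd3b6, a steroid-converting enzyme, and of the serine proteases granzyme D (Gzmd), granzyme E (Gzme) and Mcpt8. A cell belonged to the set if it had at least 5000 unique molecular identifiers (UMIs, one per captured transcript), at most 20% of them mitochondrial, UMIs of at least 2 of these 4 genes, and at least 3 UMIs over the 4 genes in sum. The rule held in 402 of 10785 cells that passed both filters: 176 of 4077 in the control library and 226 of 6708 in the stimulated library. The remaining 3901 and 6482 cells, called the other cells below, served as the comparison within each library.

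Cells came from wild-type C57BL/6 mouse lungs, were grown as fibroblasts on plastic and were profiled by droplet sequencing of transcript 3′ ends. The labels give 1 library for each of 2 groups, control and stimulated. Both groups were wild type and at passage 3, the treatment lasted 14 days, and the control cells, from the same lung, received vehicle in the same medium. Agents named in the protocol are rosiglitazone at 10 µM, which activates the nuclear receptor PPARG, SB4315442 at 1 µM and the bone morphogenetic protein rhBMP4 at 4 µM, given alone or together. It also names medium with 10% serum or with 1% ITS+3, a supplement used to drive cells towards a lipid-storing state. The labels do not say which of these the stimulated library received. The number of animals is not given, no sort was described, and the cells plated were a whole lung suspension. The matrices listed 5016 control barcodes with 88876791 UMIs in sum, and 7698 stimulated barcodes with 117381412. The libraries shared 53 barcodes, and 1 set cell in each library carried a shared barcode. With 1 library per group no test between groups was possible. All intervals are 95% intervals and cover counting error only.

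Granzymes are serine proteases best known from the granules of cytotoxic lymphocytes, which release them into target cells together with perforin. Gzmd and Gzme are rodent genes of a cluster that also holds Mcpt8, the gene of a protease known from basophils. Hsd3b6 encodes a 3-beta-hydroxysteroid dehydrogenase, an enzyme of steroid hormone synthesis known in the mouse from the adrenal gland and testis. Fibroblasts of the lung build and remodel the connective tissue matrix, and part of them turn contractile or store lipid in culture.

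The 4 genes that define the set were unequal within it, and the values here describe the rule, not a finding. Mcpt8 was seen in 168 of 176 control set cells (95.5%) and in all 226 stimulated set cells. Gzme was seen in 170 control cells (96.6%) and 215 stimulated cells (95.1%). Gzmd was seen in 95 control cells (54.0%) and in 47 stimulated cells (20.8%). Hsd3b6 was seen in only 48 control cells (27.3%) and 48 stimulated cells (21.2%). Most members were therefore chosen by Gzme with Mcpt8, and the name Hsd3b6 holds for the smaller share of them.

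Summed over cells, Hsd3b6 reached 436 CPM (counts per 1000000 UMIs) in the control set and 1.5 CPM in the other control cells, and 157 against 0.809 CPM in the stimulated library. Gzmd was at 194 against 0.539 CPM in the control library and at 36.9 against 0.198 CPM in the stimulated library. Gzme was at 479 against 3.15 CPM and at 279 against 2.41 CPM, in the same order. Mcpt8, the least restricted of the 4, was at 600 against 10.3 CPM and at 635 against 19.9 CPM. The set held 92.8% of the control UMIs of Hsd3b6 and 88.4% of the stimulated ones, but 72.2% and 55.6% of those of Mcpt8. A single control cell carried 718 of the 1619 Hsd3b6 UMIs of its set, without which the level was 246 CPM, while no stimulated cell carried more than 124.

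**Figure D1:**
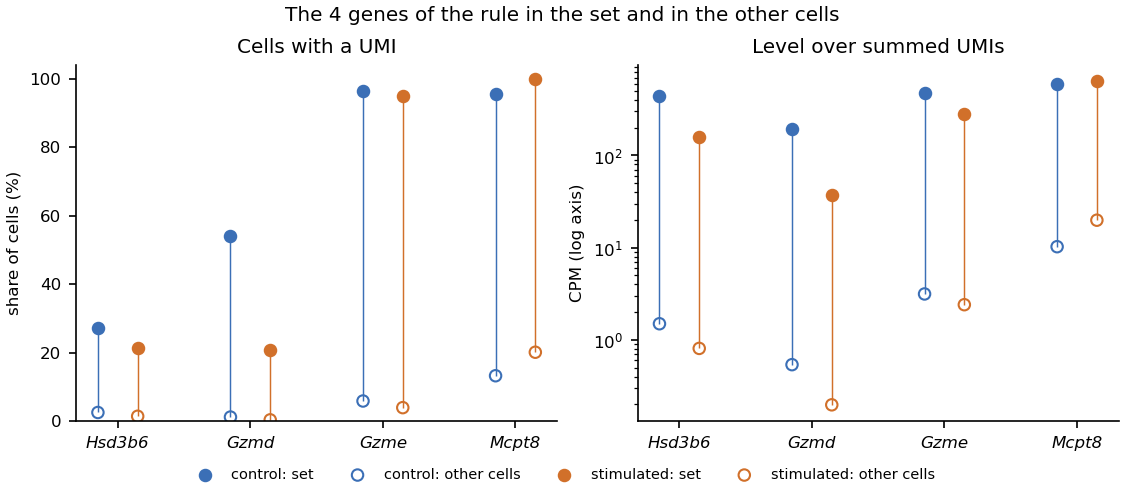
Left, share of cells with at least 1 UMI (%); right, CPM over summed UMIs on a log axis, for the 4 genes that define the set. Filled points are set cells and open points other cells, control in blue and stimulated in orange; Gzme and Mcpt8 were seen in over 95% of set cells, Hsd3b6 in 27.3% and 21.2%.

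The upstream sequences of Gzmd and Gzme, the 2 granzyme genes of the rule, are shown because they are near copies. The sequence of Gzmg, the neighbouring gene without a single UMI in the set, is shown beside them. RefSeq places all 3 on the minus strand of chromosome 14 in build GRCm38.p6, with Mcpt8, Ctsg, Gzme, Gzmd and Gzmg in this order along it, and each sequence is the 250 bases before the annotated start, 5′ to 3′. Capitals mark matches on either strand to AACCACA (a RUNX motif), AAGGTCA (an NR5A motif, here found as its reverse complement) and TGACGTCA (the cyclic AMP response element, CRE).
Gzmd, chr14:56132594-56132843: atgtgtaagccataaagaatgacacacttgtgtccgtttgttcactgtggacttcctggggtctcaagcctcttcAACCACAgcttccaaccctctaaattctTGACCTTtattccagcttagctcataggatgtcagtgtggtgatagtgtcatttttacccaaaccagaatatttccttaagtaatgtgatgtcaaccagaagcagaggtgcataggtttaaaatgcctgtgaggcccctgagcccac
Gzme, chr14:56120626-56120875: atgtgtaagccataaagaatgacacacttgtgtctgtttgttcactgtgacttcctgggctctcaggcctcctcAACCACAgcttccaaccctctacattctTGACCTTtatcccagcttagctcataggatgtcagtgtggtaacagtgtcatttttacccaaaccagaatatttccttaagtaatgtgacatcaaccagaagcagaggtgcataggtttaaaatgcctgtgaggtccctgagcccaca
Gzmg, chr14:56159580-56159829: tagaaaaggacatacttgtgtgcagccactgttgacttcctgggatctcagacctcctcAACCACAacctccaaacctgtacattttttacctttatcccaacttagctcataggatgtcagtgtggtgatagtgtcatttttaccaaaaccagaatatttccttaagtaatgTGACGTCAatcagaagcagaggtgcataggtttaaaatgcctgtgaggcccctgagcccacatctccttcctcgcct
The Gzmd and Gzme sequences were identical at 238 of 249 aligned bases (95.6%), and Gzmg matched Gzmd at 210 of 234 bases (89.7%) and Gzme at 212 of 234 (90.6%). All 3 held the RUNX letters, 175 to 169 bases before the start in Gzmd, 176 to 170 in Gzme and 191 to 185 in Gzmg. The NR5A letters lay 147 to 141 bases before the start in Gzmd and 148 to 142 in Gzme, with no match in Gzmg. The CRE letters were found in Gzmg alone of the 3, 77 to 70 bases before the start. They were not particular to Gzmg in the cluster: Gzmc held them 57 to 50 and Gzmf 82 to 75 bases before the start. Gzmb and Gzmn had no CRE match. The RUNX letters were also found in Gzmb, Gzmc and Gzmf, but not in Gzmn. Among 32817 promoter windows of the same length, 4.39% held the RUNX letters, 4.08% the NR5A letters and 1.55% the CRE letters, on either strand. The AP-1 letters TGANTCA, held by 6.75% of all windows, were searched as well and had no match in the 3 sequences. The same was true of the STAT letters TTCNNNGAA (7.01% of windows). The core promoter letters TATAAA (12.4% of windows) had no match in them either. The windows of Mcpt8 at chr14:56085198-56085447 and of Hsd3b6 at chr3:98814444-98814693, both on the minus strand, held none of the 6 motifs. These are matches of letters, and no binding was measured.

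The near identity extends to the transcripts' 3′ ends, where the reads lie. Of 11 windows of 90 bases at the end of Gzmd, 4 (36.4%) also matched Gzme or Gzmf with at most 2 mismatches, and 4 of 11 Gzme windows matched Gzmd or Gzmf. Of 33 Hsd3b6 windows, 8 (24.2%) matched Hsd3b1, Hsd3b2 or Hsd3b3, while none of 22 Mcpt8 windows matched another gene. The split of reads between Gzmd and Gzme, and between Hsd3b6 and its paralogs, is therefore uncertain.

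How often the 4 genes met in a cell is given as a description of the rule, over all kept cells, since the rule asks for 2 of them. To compare cells of unequal depth, each cell was thinned at random to 5000 UMIs. Gzme was then seen in 77.2% of control cells with a Gzmd UMI (44 of 57; exact binomial interval 64.2 to 87.3%) and in 3.28% of control cells without one (2.75 to 3.88%). Among stimulated cells the shares were 64.3% (18 of 28; 44.1 to 81.4%) and 2.84% (2.46 to 3.27%). Hsd3b6 was seen in 15.9% of control cells with a Gzme UMI (10.8 to 22.2%) against 0.846% without, and in 11.1% (7.14 to 16.1%) against 0.538% in the stimulated library. Gzme was seen in 30.2% of control cells with a Mcpt8 UMI against 2.40% without, and in 14.6% against 1.76% in the stimulated library.

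Free RNA can place UMIs in cells that do not express a gene, so the shares were set beside those of macrophages, a cell type not known for these genes. The control library held 135 cells with at least 6 macrophage markers (median 11553 UMIs, against 19311.5 in the set) and the stimulated library none. After thinning, Hsd3b6 was seen in 19.3% of control set cells, 0.692% of other cells and 3.70% of macrophages (1.21 to 8.43%). Gzmd was seen in 28.4%, 0.179% and 0 of 135 macrophages, a count that allows up to 2.70%. Gzme was seen in 59.7%, 1.82% and 2.22%, and Mcpt8 in 70.5%, 4.02% and 3.70%. The shares of the other cells lay below those of macrophages for Hsd3b6 and Gzme, and above them for Gzmd and Mcpt8 by less than the counting error of 135 cells, so no expression in the other cells is read from them. Both set cells with at least 6 macrophage markers also carried Hsd3b6, so macrophages are a weak reference for that gene. With stimulation the set and other shares were 15% and 0.370% for Hsd3b6, 10.2% and 0.0771% for Gzmd, 52.2% and 1.39% for Gzme, and 78.8% and 8.05% for Mcpt8, with no macrophages to compare.

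Members differed widely in how much of the 4 genes they carried. The sum of the 4 genes ran from 3 UMIs over a median of 9.5 to 866 in control set cells, and from 3 over a median of 9.5 to 274 in stimulated ones. The 10 highest cells held 46.9% of these UMIs in the control set and 31.6% in the stimulated set. Among control members the most common combinations were Gzmd with Gzme and Mcpt8 (63 cells) and Gzme with Mcpt8 (60 cells), and 25 cells carried all 4 genes. Among stimulated members Gzme with Mcpt8 came first (144 cells), followed by Gzmd with Gzme and Mcpt8 (31 cells) and Hsd3b6 with Gzme and Mcpt8 (27 cells), and 13 cells carried all 4. Just inside the rule stood 25 control and 39 stimulated cells with exactly 3 UMIs, and just outside 54 and 76 cells with 1 UMI each of a pair of the genes. A further 55 control and 182 stimulated cells had at least 3 UMIs of Mcpt8 and of no other rule gene, and stayed outside.

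In the control library 4.32% of cells were members (exact binomial interval 3.71 to 4.99%), and in the stimulated library 3.37% (2.95 to 3.83%). After thinning, 84 control cells (2.06%, 1.65 to 2.54%) and 93 stimulated cells (1.39%, 1.12 to 1.70%) still met the rule. The rule counts UMIs, and the share differed with depth. Among stimulated cells it ran from 2.38% of cells with 5000 to 10000 UMIs to 4.68% of those with 20000 to 40000. At 40000 or more it was 10.3% of stimulated (4 of 39) and 6.59% of control cells (6 of 91). In the control library it was 2.64% at 5000 to 10000 UMIs, 5.70% at 10000 to 20000 and 3.50% at 20000 to 40000. Set cells had a median of 19311.5 UMIs against 20927 in the other cells of the control library, and 18144.5 against 16046 in the stimulated library. At 5000 UMIs each, set cells showed more genes, a median of 1832.5 against 1693 in the control library and 1679.5 against 1619 in the stimulated one. The median mitochondrial share was 1.43% against 1.37%, and 1.25% against 1.09%.

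Fibroblast markers were at a high level in the members, and most defining markers of lymphocytes and basophils were at 0. The summed level of 16 fibroblast markers per cell was 6239 to 47755 CPM in control set cells (median 13518) and 995 to 55956 CPM in the other control cells (median 14048). For stimulated cells it was 1159 to 23124 CPM (median 6908) in the set and 1428 to 36154 CPM (median 7189) in the other cells. Of 16 measured natural killer and T cell markers 12 were at 0 in the control set, where the other 4 markers summed to 40 UMIs. Among the other control cells 8 of the 16 were at 0. The summed level was 10.8 CPM in the control set against 5.60 CPM in the other cells, so the set was not lower. Per cell the median was 0 CPM in both, with a highest cell at 1202 CPM in the control set and at 3696 CPM outside it. Whether that member is a lymphocyte or a doublet was not tested. In the stimulated set all 16 were at 0, against 1.47 CPM in the other cells. Of 13 mast cell and basophil markers 11 were at 0 in the control and 9 in the stimulated set, against 7 and 8 in the other cells. Gata2 made up nearly all of the remaining UMIs of the sets. The other cells held far more UMIs in sum, so counts of genes at 0 are not alike between them and the sets. The summed levels of this list were 12.1 against 11.2 CPM in the control library and 7.34 against 10.4 CPM in the stimulated one. Nkg7, a granule gene of cytotoxic lymphocytes chosen after its values were seen, gave 17 UMIs in the control set, at 4.58 CPM against 0.347 CPM in the other cells. Epithelial markers gave 3 and 6 UMIs in the sets.

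Macrophage genes were present in the control set, at a lower summed level than outside it, where most macrophages lay. Only 2 of the 135 control cells with at least 6 macrophage markers were members, and the rest were among the other cells. The part of these macrophages in the difference was not tested. The summed level of 12 macrophage markers was 293 CPM over the control set and 762 CPM over the other control cells, with per-cell medians of 67.5 and 69.7 CPM and none of the 12 at 0. The median log2 fold of the markers compared was -1.24, which shrank to -0.26 when the rule was applied after thinning and turned to 1.08 when cells were chosen by Hsd3b6 alone. Lyz2, the macrophage lysozyme gene, was at 133 against 400 CPM, and 364 of its 493 UMIs came from 2 set cells that carried at least 6 macrophage markers. In all, 26 of 176 control members had at least 3 macrophage markers, a share similar to the 603 of 3901 other control cells. In the stimulated library 1 of 226 members and 10 of 6482 other cells had them. Without those 26 cells the control set was at 476 CPM for Hsd3b6 and 394 CPM for Gzme, against 436 and 479 CPM with them. In the stimulated set 8 of the 12 markers were at 0 and the sum was 26.8 CPM, against 18.4 CPM in the other cells.

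Genes outside the rule also lay apart between members and other cells. Genes with at least 10 CPM over the kept cells of a library were compared, without the 4 rule genes, and a gene was counted as higher or lower when its set level lay at least 1.5-fold from that of the other cells. This is a threshold of size, with no p-value behind it. Of 6827 genes compared in the control library, 522 were higher (7.65%) and 233 lower (3.41%). Of 6742 in the stimulated library, 351 were higher (5.21%) and 309 lower (4.58%). The median log2 fold of all genes compared was 0.13 in the control library and 0.05 in the stimulated one. When libraries were rescaled by the median ratio of genes, the control counts became 328 higher and 344 lower, and the stimulated counts 283 and 349. Of 6321 genes compared in both libraries, 169 (2.67%) were higher and 92 (1.46%) lower in both, or 121 and 114 after that rescaling. The 169 were 32.4% of the control and 48.1% of the stimulated genes that were higher. The 92 were 39.5% and 29.8% of those that were lower. Across these genes the log2 folds of the libraries correlated at Pearson r = 0.59 and Spearman rho = 0.43, a description over genes that are not independent.

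Sod3, Limch1 and Cxcl14 came first among the genes higher in both libraries, ordered by the smaller of their folds. Of the 169 such genes, 11 lay under 10 CPM in the other cells of at least 1 library and so passed the limit through the set where they were high. Among the 15 described here these are Sod3, Cxcl14, Sema3c and Adarb1, all in the stimulated library. With the limit set on the other cells, 158 genes were higher in both. Sod3, the extracellular superoxide dismutase, was at 977 CPM in the control set and 61.7 CPM in the other control cells, and at 177 and 9.11 CPM in the stimulated library. The set was thus 15.8-fold higher (15.2 to 16.5) in the control library and 19.4-fold higher (17.6 to 21.3) in the stimulated one. Limch1, an actin-binding LIM domain protein, was at 408 against 23.6 CPM and at 306 against 21.5 CPM, 17.3-fold (16.2 to 18.5) and 14.3-fold (13.3 to 15.3) higher. The chemokine Cxcl14 was at 2024 against 88.0 CPM in the control library, 23.0-fold higher (22.3 to 23.8), and at only 62.1 against 8.12 CPM in the stimulated library, 7.65-fold higher (6.65 to 8.77). In that set the median cell had no Cxcl14 UMI, and 10 cells held 59.0% of the UMIs. The level of Cxcl14 therefore differed far more between the sets of the libraries than its ratio within them. Sema3c, a secreted semaphorin, was at 361 against 59.9 CPM and at 92.6 against 9.93 CPM. Grem1, a secreted antagonist of bone morphogenetic proteins, was at 852 against 264 CPM and at 387 against 73.5 CPM. Il11, a cytokine, was at 287 against 8.59 CPM in the control set (33.4-fold, 30.3 to 36.7), and it too passed the limit through the set. Stimulated cells had Il11 under the level needed for the comparison, at 70.6 against 4.92 CPM.

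Cck, the gene of the peptide hormone cholecystokinin, had the most UMIs of these genes. It was at 4656 CPM in the control set against 1122 CPM in the other cells (4.15-fold, 4.08 to 4.22) and at 8893 against 1103 CPM in the stimulated library (8.06-fold, 7.97 to 8.16). Per cell, control members ran from 38.2 over a median of 3286 to 24031 CPM, and stimulated members from 0 over a median of 7294 to 48381 CPM. The medians of the other cells were 168 and 251 CPM, with highest cells at 23298 and 38329 CPM, so the ranges overlapped. Cck was thus common in the set and present at a high level in part of the other cells too.

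Further genes had higher levels in the set. Fxyd6, a regulator of the sodium pump, was at 259 against 12.2 CPM in the control library (21.3-fold, 19.4 to 23.2) and at 92.8 against 3.91 CPM in the stimulated library, where it lay under the level needed for the comparison. Peg3, an imprinted zinc finger gene expressed from the paternal copy, was at 88.7 against 11.9 CPM and at 92.8 against 10.0 CPM, 7.43-fold and 9.25-fold higher. Nrep was 7.60-fold and 6.53-fold higher, the adenosine deaminase Adarb1, which edits RNA, 8.62-fold and 4.79-fold, and the heat shock protein gene Hsph1 5.73-fold and 5.10-fold. The cyclic nucleotide phosphodiesterase Pde10a was 5.42-fold and 4.20-fold higher. Ptges, a prostaglandin E synthase, was 3.75-fold and 3.91-fold higher, thrombomodulin (Thbd) 3.16-fold and 4.49-fold, the surface protein gene Cd24a 3.14-fold and 4.67-fold, and the sphingomyelin synthase Sgms2 3.36-fold and 2.95-fold.

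**Figure D2:**
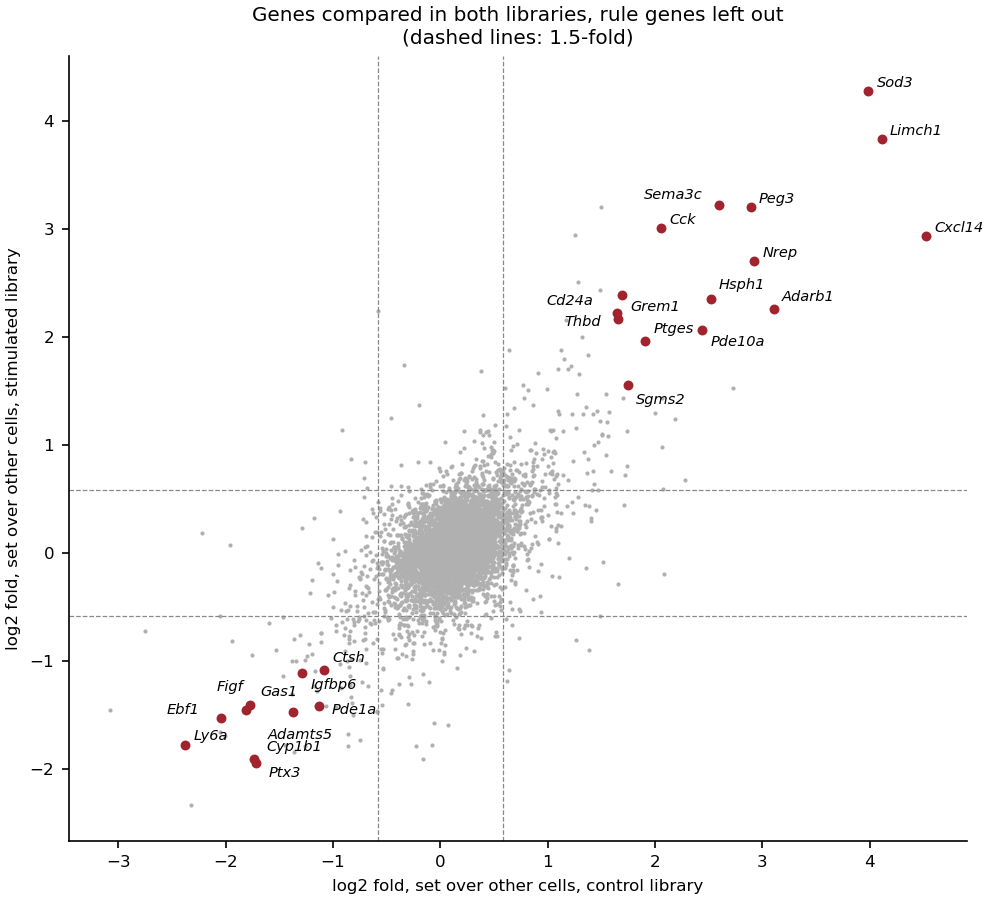
Each point is 1 of 6321 genes compared in both libraries, with the log2 fold of the set over the other cells in the control library (x) and in the stimulated library (y). Dashed lines mark 1.5-fold; the 25 named genes are in red, with Sod3, Limch1 and Cxcl14 at the upper right and Ly6a, Ptx3 and Cyp1b1 at the lower left.

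Shares of cells with a UMI were also compared at equal depth. Every kept cell had at least 5000 UMIs, so thinning left none out. After thinning, Limch1 was seen in 58.0% of control members, 8.36% of the other cells and 4.44% of macrophages, and in 113 of 226 stimulated members against 5.79% of the other cells there. With all UMIs its shares were 73.9% and 20.3% in the control library and 62.8% and 11.9% in the stimulated one. Sod3 was seen in 76.1%, 18.6% and 8.15%, and in 32.7% against 4.26%, and with all UMIs in 89.8% and 43.5% of control and 46.0% and 11.1% of stimulated cells. Fxyd6 was seen in 41.5%, 4.31% and 1.48%, and in 21.2% against 1.67%. Cxcl14 was seen in 65.9% of control members and 12.3% of the other cells, but also in 34.1% of macrophages, so no expression in the other cells is read from its share there. The stimulated shares of Cxcl14 were 14.2% and 2.75%. Cck was seen in 91.5% of control members, 62.5% of the other cells and 46.7% of macrophages, and in 95.1% against 71.1% in the stimulated library.

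**Figure D3:**
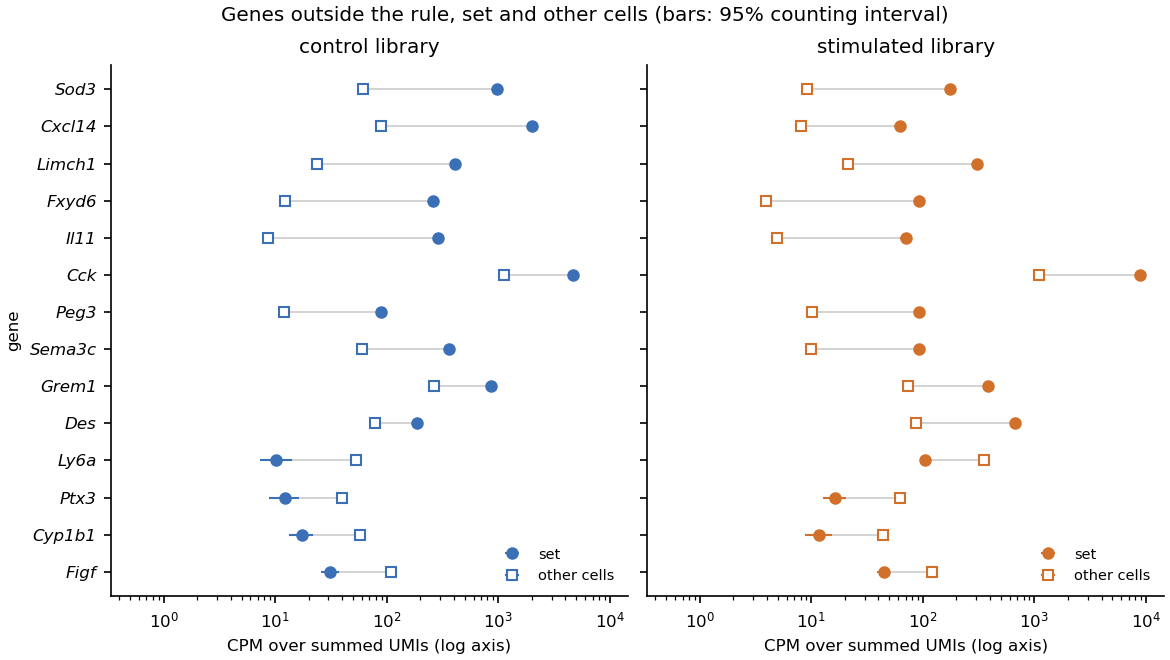
CPM over summed UMIs on a log axis for 14 genes outside the rule, in set cells (filled circles) and other cells (open squares), control library left and stimulated library right, with 95% counting intervals. The first 10 genes lie higher in the set and the last 4, Ly6a, Ptx3, Cyp1b1 and Figf, lie lower in both libraries.

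Ly6a, Ptx3 and Cyp1b1 were among the genes lower in both libraries. Ly6a, the stem cell antigen Sca-1, was at 10.2 CPM in the control set against 53.2 CPM outside, 5.19-fold lower (3.77 to 7.34), and at 104 against 355 CPM in the stimulated library, 3.42-fold lower (3.12 to 3.76). Ptx3, a pentraxin of innate defence, was at 12.1 against 39.8 CPM and at 16.3 against 62.6 CPM, 3.28-fold and 3.84-fold lower. The monooxygenase Cyp1b1 was 3.32-fold and 3.76-fold lower, the transcription factor Ebf1 4.13-fold and 2.89-fold, and Figf, a growth factor of lymphatic vessels, 3.50-fold and 2.73-fold. Gas1 was 3.42-fold and 2.65-fold lower, the aggrecan-cleaving protease Adamts5 2.60-fold and 2.77-fold, Pde1a 2.19-fold and 2.67-fold, Igfbp6 2.44-fold and 2.16-fold, and the protease Ctsh 2.11-fold and 2.12-fold. After thinning, Ly6a was seen in 5.11% of control members against 14.0% of the other cells and in 28.3% against 57.8% in the stimulated library. Lum, a matrix proteoglycan, showed the largest fold lower in the control library, at 2.43 against 20.2 CPM (8.33-fold, 4.38 to 18.3). Among stimulated cells Adgrd1, an adhesion receptor, was at 5.50 against 27.8 CPM and the interleukin 1 receptor antagonist Il1rn at 22.2 against 87.5 CPM.

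Most smooth muscle markers that could be compared were higher in the set. Of 12 smooth muscle and pericyte markers, 7 could be compared in the control library and 6 of them were higher (Myh11, Des, Cnn1, Actg2, Smtn and Mcam) and none lower, with a median log2 fold of 0.95. In the stimulated library 3 of 5 were higher (Des, Cnn1 and Actg2), with a median of 0.63. Both medians lay above those of all genes, 0.13 and 0.05. The shares of all genes that were higher were 7.65% and 5.21%. When cells were chosen by Hsd3b6 alone, at 2 UMIs or more, the control median turned to -0.54, and the control log2 folds of Des, Cnn1 and Actg2 turned to -0.54, -0.14 and -0.89. Des, the muscle intermediate filament desmin, was at 188 against 78.8 CPM in the control library and at 673 against 87.5 CPM in the stimulated one, 2.39-fold (2.21 to 2.59) and 7.70-fold (7.38 to 8.02) higher. Actg2, smooth muscle gamma actin, was at 1216 against 627 CPM and at 111 against 57.1 CPM. The smooth muscle actin Acta2 was high everywhere and close to the other cells, at 4444 against 3127 CPM and at 1284 against 1084 CPM. The summed smooth muscle markers per cell had medians of 1420 CPM in the control set and 771 CPM outside, and 471 and 91.3 CPM in the stimulated library, with overlapping ranges. Myh11, a defining myosin of smooth muscle, was at 51.8 against 26.8 CPM and at 2.75 against 0.297 CPM, the latter pair under the level compared, and 2 of the 12 markers were at 0 in each set. The part of smooth muscle cells in these differences was not tested.

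Myofibroblast genes showed a smaller difference of the same kind. Of 18 compared in the control library 3 were higher (Mylk, Csrp1 and Tnc) and 1, Postn, lower, with a median log2 fold of 0.41. Of 17 in the stimulated library 6 were higher (Cald1, Actn1, Mylk, Csrp1, Thbs1 and Tnc) and none lower, with a median of 0.37. Mylk, the myosin light chain kinase gene, was at 744 against 303 CPM and at 137 against 43.3 CPM. With cells chosen by Hsd3b6 alone the control median turned to -0.017. Tnc, the matrix glycoprotein tenascin C, was at 616 against 289 CPM and at 547 against 168 CPM. Of the actin and LIM genes, Limch1 and the LIM protein gene Fhl1 were higher in both libraries, 2 of 17 genes in the control library and 4 of 17 in the stimulated one being higher. The control count lies near the 7.65% of all genes that were higher there and is no result about this list.

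Fibroblast markers had medians below 0. Of 16 fibroblast markers in the control library 1, Pdgfra, was higher and 5 were lower (Col1a2, Col3a1, Lum, Fbln2 and S100a4), and of 14 in the stimulated library none was higher and Col3a1 and Pdgfrb were lower. The medians were -0.19 and -0.17 on the log2 scale. For this and the lists below, all genes compared were 7.65% higher and 3.41% lower in the control library. In the stimulated library these shares were 5.21% and 4.58%. Col1a1, a main fibrillar collagen chain, was at 2085 against 2383 CPM and at 486 against 467 CPM, short of the threshold in both. Col3a1, its partner in thin fibrils, was at 281 against 507 CPM and at 106 against 185 CPM. Of the matrix proteases and their inhibitors, Mmp2, Mmp3, Mmp23 and Adamts5 were lower in both libraries, 4 of 16 genes compared in each. Among other collagens, Col11a1 and Col12a1 were higher in the control set. Col7a1, the anchoring fibril collagen, was higher in the stimulated set, at 36.2 against 9.08 CPM, having passed the limit through the set.

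Signalling genes of the transforming growth factor and bone morphogenetic protein families were counted next. Of 17 compared in the control library, 8 were higher, among them Tgfb1, Tgfb3, Bmp4, Grem1 and Inhba, and none lower, with a median log2 fold of 0.56. Of 12 in the stimulated library 3 were higher (Tgfb3, Grem1 and Inhba), Ltbp2 was lower, and the median was -0.06. Over all genes, 7.65% were higher and 3.41% lower in the control library, and 5.21% and 4.58% in the stimulated one. Bmp4, a ligand, was at 67.1 against 8.66 CPM in the control library, 7.75-fold higher (6.68 to 8.96), having passed the limit through the set, and at 7.11 against 0.504 CPM in the stimulated library, too low to be compared. The activin subunit gene Inhba was at 197 against 98.6 CPM and at 84.8 against 29.5 CPM. The difference between the libraries in this list was not tested.

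Some genes of the hypoxia list were higher and none lower, while chemokine and acute phase genes lay on both sides. Beside these counts stand 7.65% of all genes higher and 3.41% lower in the control library, and 5.21% and 4.58% in the stimulated one. Of the hypoxia and glycolysis genes 5 of 18 were higher in the control library (Vegfa, Slc2a1, Slc16a3, Adm and Ndrg1) and 3 of 15 in the stimulated library (Vegfa, Slc2a1 and Adm), none lower, with medians of 0.28 and 0.32. Vegfa, a vessel growth factor, was at 162 against 69.8 CPM and at 39.9 against 12.0 CPM. Among chemokine and acute phase genes Ccl2, Ccl7 and Cxcl14 were higher in both libraries and Ptx3 lower in both. The chemokine Ccl7 was at 229 against 102 CPM and at 274 against 61.1 CPM. The glucocorticoid response list showed 3 genes higher and 2 lower of 10 in the control library, and 6 lower of 12 in the stimulated library (Fkbp5, Zbtb16, Klf9, Mt1, Mt2 and Serpina3n), with medians of -0.01 and -0.55. Serpina3n, a protease inhibitor, was at 208 against 715 CPM in the stimulated library, and the metallothionein Mt1 at 7517 against 14998 CPM. Fabp4, a lipid carrier and PPARG target, was lower in both, at 6.74 against 11.9 CPM and 56.6 against 149 CPM, whereas the lipid droplet gene Plin2 was higher in both, at 64.2 against 39.8 CPM and 124 against 68.9 CPM.

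**Figure D4:**
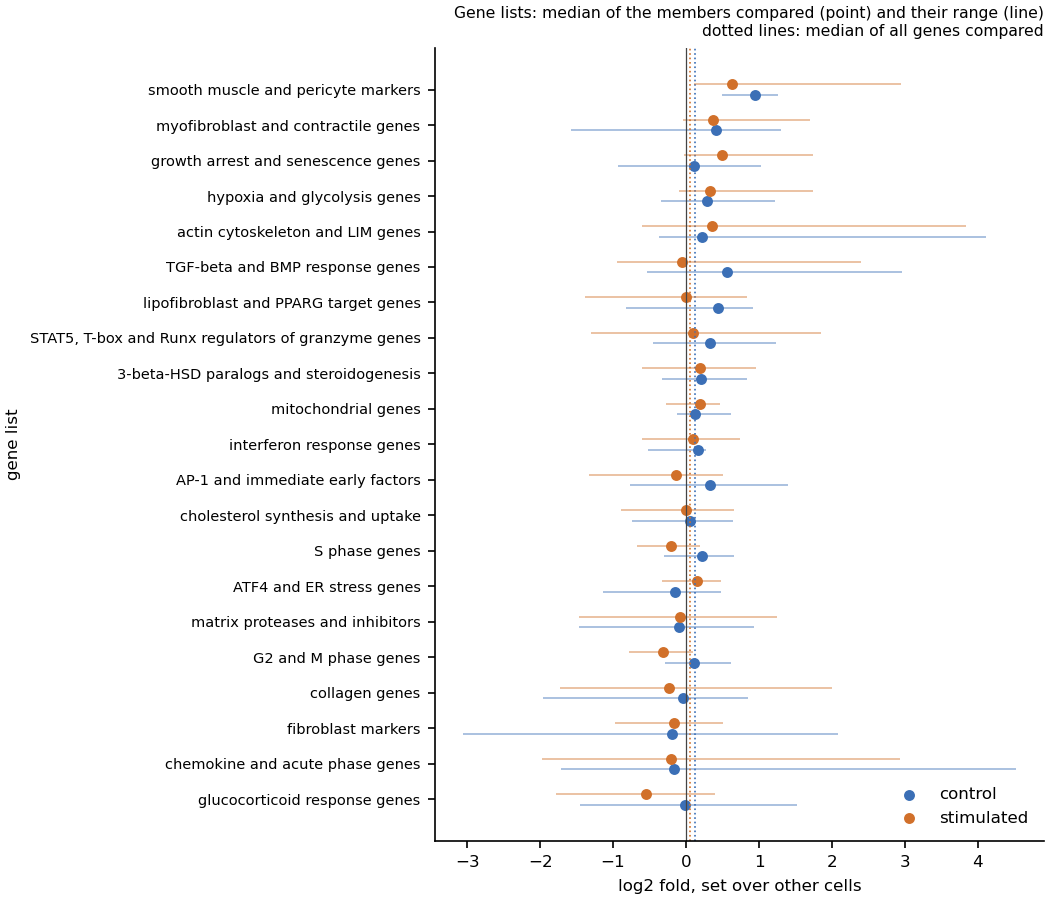
Median log2 fold of the set over the other cells (points) and range over members (lines) for gene lists, control in blue and stimulated in orange; dotted lines mark the medians of all genes compared, 0.13 and 0.05. Among the lists plotted, smooth muscle markers have the highest medians, 0.95 and 0.63, and glucocorticoid response genes in the stimulated library the lowest, -0.55.

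The rest of the steroid pathway was sparse. Of 32 genes of the steroidogenesis list, 10 could be compared in the control library, where Hsd17b7 and Nr4a1 were higher and none lower. In the stimulated library 9 could be compared, with Fdx1 and Nr4a1 higher and Stard4 lower. The medians were 0.21 and 0.19 on the log2 scale. Over all genes, 7.65% were higher and 3.41% lower in the control library, and 5.21% and 4.58% in the stimulated one. Cyp11a1, the side chain cleavage enzyme that begins steroid synthesis, had no UMI in the set of either library. Star, which carries cholesterol into mitochondria and was chosen after its values were seen, stood at 1.35 CPM in the control set (5 UMIs) against 0.923 CPM. In the stimulated set it was at 16.7 CPM against 0.674 CPM, from 73 UMIs in 17 cells, 41 of them in 1 cell. Without that cell Star was at 7.38 CPM. Hsd3b1, likewise chosen, gave 32 UMIs in the control set (8.63 CPM) and 10 in the other cells (0.120 CPM), and it shares 3′ sequence with Hsd3b6, so its level is uncertain.

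Other proteases of the family were sparse in the set but at a higher level than outside it. Of 15 other granzymes and mast cell proteases, 10 were at 0 in the control set and 5 in the stimulated set, against 11 and 8 in the other cells. They summed to 16 UMIs in the control set and 32 in the other cells (4.31 against 0.383 CPM), and to 30 and 82 UMIs in the stimulated library (6.88 against 0.737 CPM). None reached the level needed for the comparison. Gzmg had none. The largest was the chymase gene Cma2 with 13 UMIs in the stimulated set and 6 in the other cells (2.98 against 0.0540 CPM), chosen after its values were seen. Members were chosen by Gzmd and Gzme among others, and both share 3′ sequence with Gzmf. Misassigned reads could therefore add to the sums of the other proteases in the set, which was not tested. Among partners and inhibitors of granzymes, Ctsc, the protease that activates granzymes, was at 31.5 against 22.9 CPM and at 47.2 against 40.3 CPM, under the threshold. The inhibitor gene Serpinb6b was at 28.3 against 30.1 CPM in the control library and at 15.1 against 1.68 CPM in the stimulated one, from 66 UMIs. Of a broad list of STAT pathway, T-box, Runx family and related genes, Runx1, Tbx5 and Socs2 were higher in the control library (3 of 8 compared). A role of these genes in granzyme expression was not tested. Tbx2 was higher and Bhlhe40 lower in the stimulated library (2 of 8). Over all genes, 7.65% were higher in the control library, and 5.21% were higher and 4.58% lower in the stimulated one. Tbx2, a T-box transcription factor, was at 35.0 against 8.34 CPM and at 33.0 against 9.12 CPM, the control level being under the comparison limit. In the stimulated library Tbx2 passed that limit through the set.

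The sets of the 2 libraries were then compared with each other. Among the 6321 genes, 309 (4.89%) were at least 1.5-fold higher and 851 (13.5%) lower in the stimulated than in the control set, against 357 (5.65%) and 611 (9.67%) in the other cells. The libraries cannot be told apart from the treatment in these counts. The ratio of the 2 folds, which compares how far the set stood from its own library, was at least 2-fold higher in the stimulated library for 32 genes (0.506%) and lower for 60 (0.949%). Ptgs2, the inducible prostaglandin synthase, was at 167 against 58.9 CPM in the control library and 80.2 against 8.66 CPM in the stimulated one, a ratio of folds of 3.28 (2.82 to 3.80). In the stimulated library Ptgs2 passed the limit through the set. Plk2, a kinase of the stress response, was at 84.4 against 107 CPM and at 95.1 against 28.4 CPM, with a ratio of 4.24 (3.64 to 4.94). Timp3, a matrix protease inhibitor, was at 584 against 804 CPM and at 142 against 59.5 CPM, with a ratio of 3.28 (2.99 to 3.60). Crct1 had the largest ratio, 7.11 (5.63 to 8.97), at 715 against 151 CPM in the stimulated library. Of its 3117 UMIs there 1429 lay in 1 set cell, without which the level was 391 CPM and the fold 2.60. The rank of Crct1 was not recomputed without that cell. Its stimulated log2 fold turned to -0.06 when the rule was applied after thinning.

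In the other direction stood Pdgfra, the gene of a growth factor receptor. It was at 102 against 24.1 CPM in the control library and at 62.8 against 71.6 CPM in the stimulated one, a ratio of folds of 0.207 (0.176 to 0.244). Sfrp1, a secreted Wnt antagonist, was at 436 against 138 CPM and at 188 against 230 CPM, with a ratio of 0.260 (0.238 to 0.284). The kinase Sgk1 was at 222 against 77.7 CPM and at 301 against 319 CPM, with a ratio of 0.329 (0.301 to 0.361). Lmcd1, a LIM domain protein, was at 88.4 against 31.5 CPM and at 29.3 against 44.1 CPM, and its control log2 fold turned to -1.055 with cells chosen by Hsd3b6 alone. These ratios rest on 1 library each.

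The shared genes were graded by the amount of rule transcripts in a cell. In the control library Limch1 was at 19.7 CPM in 3069 cells with no rule UMI, 34.2 CPM in 638 cells with 1, and 43.5 CPM in 194 cells outside the set with 2 or more. Within the set it was at 235 CPM in 54 cells with 3 to 5 rule UMIs, 355 CPM in 67 cells with 6 to 20 and 619 CPM in 55 cells with over 20. The same steps for Limch1 in the stimulated library were 16.6, 24.2, 61.8, 160, 220 and 598 CPM. Sod3 ran from 51.0 CPM in control cells without a rule UMI to 1756 CPM in those with over 20, and from 8.33 to 463 CPM in the stimulated library. Cck ran from 921 to 5221 CPM and from 877 to 14021 CPM. As a ratio, the largest step for Limch1 lay at the edge of the set in the control library, while Cck was already at 2325 and 2581 CPM in the cells just outside. Cells with at least 3 UMIs of Mcpt8 alone were at 26.9 CPM of Limch1 in the control library and 70.4 CPM in the stimulated one, with 3031 and 2955 CPM of Cck.

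**Figure D5:**
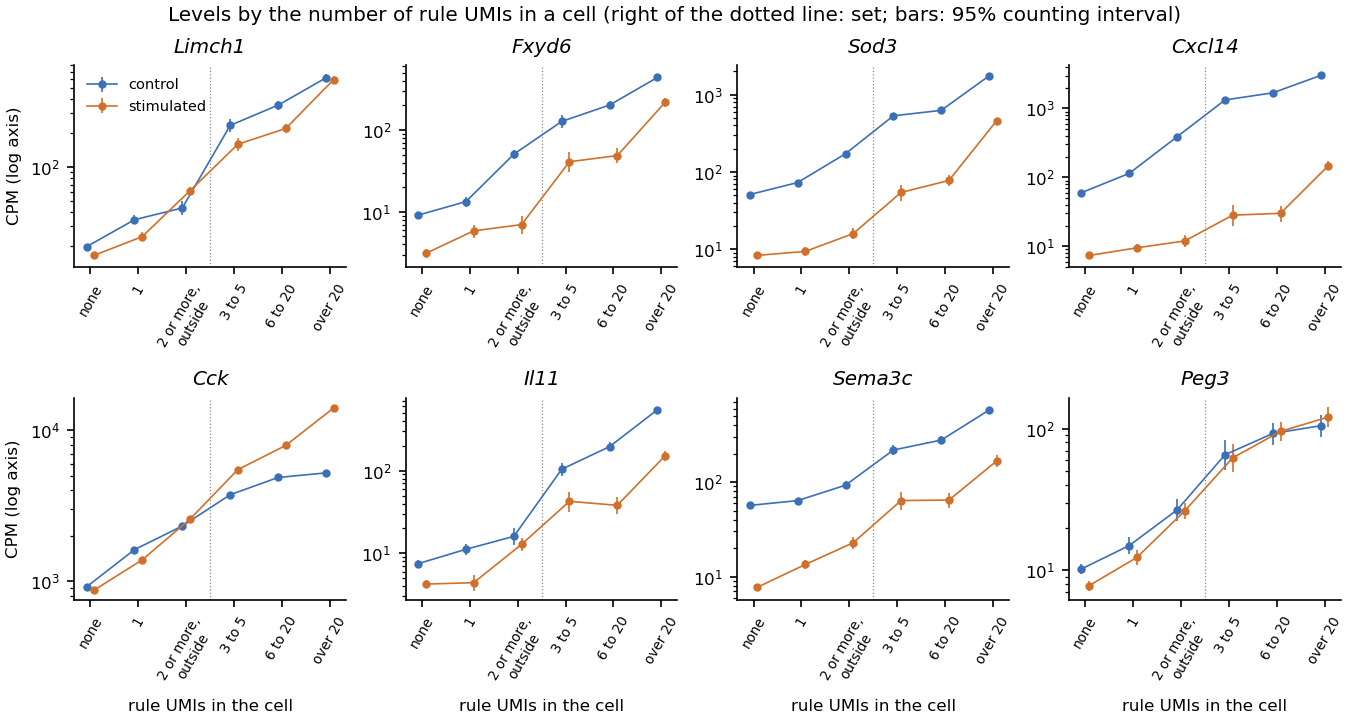
CPM over summed UMIs on a log axis for 8 genes outside the rule, by the number of UMIs of the 4 rule genes in a cell, control in blue and stimulated in orange, with 95% counting intervals; classes right of the dotted line are in the set. Limch1 runs from 19.7 to 619 CPM in the control library and from 16.6 to 598 CPM in the stimulated one.

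Members with and without Hsd3b6 shared these genes. In the control set, the 48 cells with a Hsd3b6 UMI were at 1284 CPM of Sod3 and the 128 without at 854 CPM, against 61.7 CPM in the other cells. For Limch1 the levels were 590, 335 and 23.6 CPM, and for Fxyd6 353, 221 and 12.2 CPM. In the stimulated set, Sod3 was at 369 CPM in the 48 cells with Hsd3b6, at 126 CPM in the 178 without and at 9.11 CPM in the other cells, and Limch1 at 530, 248 and 21.5 CPM. Both kinds of member thus lay far above the other cells. Contractile genes differed in order: Acta2 was at 2590 CPM with and 5189 CPM without Hsd3b6 in the control set, and Des at 93.1 and 227 CPM, while in the stimulated set Des was at 917 and 609 CPM. Lyz2 was at 368 CPM in control members with Hsd3b6 and 38.5 CPM in those without, and both cells with at least 6 macrophage markers carried Hsd3b6. Most Lyz2 UMIs of the control set came from those cells, as given above, so the difference in Lyz2 rests largely on them. The part of macrophage transcripts in the other differences was not tested.

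Members were also near each other in overall expression. Each cell's 15 nearest neighbours in its library were found from 2000 variable genes, without the rule genes and other granzymes and proteases. On average 40.0% of the neighbours of a control member were members, against 1.88% of those of the other cells, and 35.4% against 1.83% in the stimulated library. The members were not 1 compact group: 26 control and 48 stimulated members had no member among their neighbours.

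Genes of cell division were close to the other cells in the control set and lower by median in the stimulated set. The share of cells with at least 5 UMIs of the G2 and M phase list after thinning was 22.2% of control members (16.3 to 29.0%) against 23.9% of the other cells, and 32.7% of stimulated members (26.7 to 39.3%) against 40.0%. In the control library the median log2 fold of 23 such genes was 0.10, which turned to -0.03 under the median-ratio scaling and to -1.25 with cells chosen by Hsd3b6 alone. In the stimulated library it was -0.31 over 28 genes, with Mki67, Plk1, Kif23 and Tacc3 lower and none higher. Over all genes compared there, 4.58% were lower and 5.21% higher. Btg2, a gene of growth arrest, was higher in both libraries, at 152 against 74.3 CPM and 179 against 81.7 CPM, and the cell cycle inhibitor Cdkn1a was at 540 against 393 CPM and 544 against 399 CPM, short of the threshold. Cdkn2a was at 42.1 against 74.8 CPM in the control library and 214 against 117 CPM in the stimulated one, past the threshold in opposite directions, and the difference between the libraries was not tested.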

How the data were processed

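What the authors deposited are raw counts: the UMIs of each of 27998 genes in each barcode, not normalized, as 1 sparse matrix per library. Libraries were made with 10x Single Cell 3′ v2 reagents, per the labels' protocols. Software 3.0.2 wrote the matrices, per the file headers, while Seurat 3.0.0 and Cell Ranger 1.3.1 appear in the submitters' processing notes, so the version behind the counts is not known. Of the genome build and annotation, nothing is stated (not given in the sources used here).

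Barcodes under 5000 UMIs (936 control, 990 stimulated) and those above 20% mitochondrial UMIs (3 and 0) were left out. Doublets were neither called nor removed, since no caller was run; an alternative left out the deepest 5% of cells. UMIs were summed over set and other cells and divided by their total (CPM). Folds have exact conditional Poisson 95% intervals, and shares exact binomial (Clopper-Pearson) ones. A gene without UMIs is held to 3 counts. Members, gene lists (33) and the naming rule were chosen with earlier results of these data known, and the members' own values for the rule genes support nothing.

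Named genes were those of the rule, Fxyd6 and Limch1; the 15 largest folds higher and 10 lower in both libraries among genes of at least 20 CPM in the set or in the other cells, a level that some reach in the set alone; the 5 largest each way per library; 2 abundant genes and the largest fold of each list; and the 5 largest ratios of folds each way. Further genes named as members of a list are given with its count, and some genes that the rule names are not reported here. Neighbours came from 30 principal components. Promoter sequences are RefSeq's, build GRCm38.p6. Transcript ends are those of GENCODE mouse transcripts, taken as the last 400 bases in windows of 90 bases every 30. The fold was tested on counts simulated with the same Poisson error that the intervals assume. Coverage therefore checks the calculation and not the spread between cells. For 50 genes per fold size, intervals covered a true fold of 2 in 98.0% of genes in the control and 96.0% in the stimulated simulation. For a true fold of 4 they covered 98.0% and 90.0%. Python 3.11.15, numpy 2.4.6, scipy 1.17.1, pandas 2.3.3, scikit-learn 1.9.0, matplotlib 3.10.9 and biopython 1.88 were used.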

Additional observations from a re-analysis of the deposited data

Results flagged for a closer look

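Lmcd1, Chchd10, Plk1, Cdkn2a and Il1rl1 lay at least 1.5-fold from the other cells in opposite directions in the 2 libraries, and the difference was not tested. They are only part of such genes. Among 6321 genes compared in both, 8 were higher in the control and lower in the stimulated library, and 5 the reverse. Lmcd1 had a fold of 2.81 in control and 0.666 in stimulated cells. Chchd10, a mitochondrial protein gene, had a fold of 0.529 in the control library, at 56.3 against 107 CPM, and 2.20 in the stimulated library, at 22.9 against 10.4 CPM. Plk1, a mitotic kinase gene, had a fold of 1.53 in control and 0.656 in stimulated cells, and 16 of its 89 control UMIs came from 1 set cell, without which the control fold was 1.27. The control folds of Lmcd1 and Plk1 lay on the other side when cells were chosen by Hsd3b6 alone. Cdkn2a, a cell cycle inhibitor gene, had folds of 0.562 and 1.83 in control and stimulated cells. Il1rl1, the receptor gene for interleukin 33, had folds of 0.623 and 1.52. Among barcodes left out for low depth, 13 of 936 control and 9 of 990 stimulated ones met the rule on the 4 genes.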

How the results depend on the processing

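No paired analysis was possible because each group has 1 library. Leaving out a replicate was likewise not possible. Of 106 genes picked by the naming rule with at least 10 UMIs in both groups of control cells, 58 lay past 1.5-fold, and from 50 to 58 of these kept their direction and 46 to 58 the threshold across 17 alternatives. Of 63 such genes in the stimulated library, 62 or 63 kept their direction and 58 to 63 the threshold. Alternatives that change only the limit on CPM leave every fold as it is, so they could move none of these genes. Many were picked for a large fold. With Hsd3b6 alone the control log2 folds turned to 1.2 for Lyz2, 1.207 for C1qb, 0.989 for Tyrobp, -0.888 for Actg2, -0.144 for Cnn1, -0.544 for Des, -0.977 for Plk1 and -1.055 for Lmcd1, and the stimulated one of Chac1 to -0.258. That of Lyz2 turned to 0.0061 without cells carrying macrophage or mesothelial markers, that of Plk1 to -0.888 in cells with few cycle UMIs, and that of Crct1 in the stimulated library to -0.062 with the thinned rule.

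The share of cells in the set depends on the rule. It was 2.06% of control and 1.39% of stimulated cells when the rule was applied at 5000 UMIs, 2.23% and 0.969% with 3 genes and 6 UMIs required, and 0.981% and 0.492% with Hsd3b6 alone at 2 UMIs.

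Counts of genes past 1.5-fold moved under alternatives of the rule, the cells kept, the filter and the scaling. Control genes higher numbered 865 with the thinned rule, 960 with Hsd3b6 alone, 886 among cells with under 5 UMIs of G2 and M phase genes, 260 at 25 CPM or more, 2827 with no filter, 328 with median-ratio scaling and 321 with totals that leave out mitochondrial and ribosomal genes. Stimulated genes higher numbered 664 with the thinned rule, 816 with 3 genes and 6 UMIs, 875 with Hsd3b6 alone, 627 in cells with few cycle UMIs, 165 at 25 CPM and 2443 unfiltered. Control genes lower numbered 624 with Hsd3b6 alone, 110 at 25 CPM and 1252 unfiltered. Stimulated genes lower numbered 544 with the thinned rule, 666 with 3 genes and 6 UMIs, 853 with Hsd3b6 alone, 591 in cells with few cycle UMIs, 148 at 25 CPM and 1297 unfiltered. Genes higher in both numbered 293, 302, 298 and 254 under the thinned rule, the rule of 3 genes, Hsd3b6 alone and few cycle UMIs, 78 at 25 CPM and 968 unfiltered. Genes lower in both numbered 219 with Hsd3b6 alone, 44 at 25 CPM and 398 unfiltered.

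The control macrophage median (-1.24 on the log2 scale) was -0.26 with the thinned rule, -0.43 with 3 genes and 6 UMIs, -2.18 with every cell counted alike and -3.57 in cells with few cycle UMIs, and turned to 1.08 with Hsd3b6 alone. Also with Hsd3b6 alone, control medians turned to -0.54 for smooth muscle markers, -0.017 for myofibroblast genes, -0.052 for actin and LIM genes and -1.25 for G2 and M phase genes, and the S phase median was -0.68. The control G2 and M phase median was 0.015 with every cell counted alike and turned to -0.025 and -0.031 under median-ratio scaling and without mitochondrial and ribosomal totals. Other control medians were -0.11 for cholesterol genes with 3 genes and 6 UMIs, 0.43 for interferon genes unfiltered, and 0.22, 0.29 and 0.23 for mitochondrial genes with the thinned rule, Hsd3b6 alone and few cycle UMIs. In the stimulated library the glucocorticoid median was -1.01 with Hsd3b6 alone, and the S phase median was -0.0030 with Hsd3b6 alone and turned to 0.089 in cells with few cycle UMIs. The G2 and M phase median was -0.65, -0.84 and -0.75 with the thinned rule, 3 genes and 6 UMIs, and Hsd3b6 alone, -0.38 with the proteases alone and -0.44 with other cells weighted to the depth of the set. Stress genes reached 0.46 in cells with few cycle UMIs, growth factor response genes -0.29 with 3 genes and 6 UMIs, and mitochondrial genes 0.30 and 0.29 with that rule and with Hsd3b6 alone. The cause of these changes was not tested. The alternatives without shared barcodes and with the limit of 10 CPM on the other cells were chosen after seeing the data. The latter changes only which genes are compared, so it could change no direction.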

Other observations

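Some gene groups not described above did not separate the set. Of the cholesterol genes, 1 of 17 compared was higher in the control library and 1 of 16 in the stimulated library, in both cases Sc5d, a late enzyme of the pathway, at 38.6 against 24.6 CPM and 24.1 against 15.2 CPM. Of the interferon response genes none of 8 reached the threshold in the control library, and Isg15 was higher and Ifitm3 lower of 7 in the stimulated library. Fxyd5, of the family of sodium pump regulators, was higher in the control library at 153 against 81.1 CPM. Msln, a mesothelial marker, was at 1.35 against 1.27 CPM in the control and at 48.6 against 11.7 CPM in the stimulated library, where 1 member carried at least 3 mesothelial markers. Prl2c3, a prolactin family gene picked after its values were seen, was at 14.7 against 2.41 CPM in the stimulated library, but 48 of 53 windows of its 3′ end (90.6%) match other genes of that family, so its level is uncertain.

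The remaining lists are given by their counts, beside 7.65% of all genes higher and 3.41% lower in the control library, and 5.21% and 4.58% in the stimulated one. Of the AP-1 and immediate early genes, Fos, Jun, Ier3 and Maff were higher and Klf4 lower of 14 in the control library, and Egr2 and Klf4 were lower of 15 in the stimulated library. Ddit3, Trib3, Chac1 and Psat1, genes of the integrated stress response, were lower of 16 stress genes in the control library, and none of 14 passed in the stimulated library. Among growth arrest genes Btg2 was higher and Cdkn2a and Cdkn2b lower of 13 in the control library, and Cdkn2a, Trp53inp1, Btg2 and Plk2 were higher of 12 in the stimulated library. The collagen list had 2 higher and 5 lower of 15 in the control library, and 1 higher and 4 lower of 17 in the stimulated library, with Col3a1 and Col8a1 lower in both. Rrm2 was higher of 15 S phase genes in the control library and Pcna lower of 19 in the stimulated library. Of the mitochondrial genes mt-Nd4l was higher of 12 in the control library and none of 13 passed in the stimulated library.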
